A study of Mus musculus with 20 samples.

Results

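The comparison described here sets uninjured kidneys of TERT KO/KO mice against those of TERT WT/WT mice. It was chosen by its sample labels alone, which took 7 of the 20 libraries of the series, 3 TERT KO/KO saline libraries and 4 TERT WT/WT saline libraries. All mice were female, 2 months old by their labels and of Balb/c background. The TERT KO/KO mice carry a constitutive knockout of Tert in every cell, repeatedly bred back to the BALB/c strain, and the TERT WT/WT mice were their littermates. Both genotypes received a single tail vein injection of saline, the vehicle of the Adriamycin (ADR) arm of the study, and whole kidneys were taken 18 days later. RNA was extracted from whole kidney, so glomeruli, all tubule segments, vessels and interstitium were measured together, and fewer cells of a type cannot be told apart from less RNA per cell. All values below are from these 7 libraries unless another group is named, and each library is 1 mouse.

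TERT is the reverse transcriptase subunit of telomerase, which copies an RNA template onto chromosome ends, and it is also reported to act on transcription apart from telomeres. Most cells of an adult mammal hold little Tert mRNA. The kidney filters blood in glomeruli and then recovers salt, sugar and water along the proximal tubule, the thick ascending limb, the distal convoluted tubule and the collecting duct, segments that rely heavily on mitochondria. The question put to these libraries was which genes differ between the genotypes before any injury.

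Tert itself was measured first, as the targeted gene. It had 132, 87 and 51 counts in TERT KO/KO kidneys, against 174, 187, 145 and 122 counts in TERT WT/WT kidneys. In CPM, the share of a library's counts scaled with TMM factors, this was 2.88, 2.36 and 1.34 CPM in TERT KO/KO and 3.74, 3.74, 3.01 and 2.98 CPM in TERT WT/WT. Every TERT KO/KO library lay below every TERT WT/WT library, but the nearest libraries of the 2 genotypes were close, at 2.88 and 2.98 CPM. The log2 fold change was -0.61 ± 0.23 (SE), with an adjusted p of 0.224 by edgeR's quasi-likelihood test with Benjamini-Hochberg adjustment. An exact two-sided permutation test of 3 against 4 mice gave p = 0.0571, the smallest it can give. The sources used here do not state which part of Tert is deleted or how exons were counted. The deposited table gives a single count for each gene, so this count cannot check the genotype labels.

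Of 17363 genes tested, 2 were called at an adjusted p under 0.05, which is 0.0115% of the genes tested, and both were lower in TERT KO/KO kidneys. They were Akr1c18, an aldo-keto reductase that inactivates progesterone, and Glrx, the cytosolic glutaredoxin that removes glutathione from protein thiols. Akr1c18 had 15.2, 12.7 and 13.4 CPM in TERT KO/KO kidneys, against 54.7, 64.6, 71.3 and 59.8 CPM in TERT WT/WT kidneys. The groups did not overlap, and the highest TERT KO/KO kidney was far below the lowest TERT WT/WT kidney. Akr1c18 averaged 13.8 ± 1.30 CPM in TERT KO/KO and 62.6 ± 7.10 CPM in TERT WT/WT (SD, n = 3 and n = 4), a log2 fold change of -2.18 ± 0.11 and an adjusted p of 1.78e-05 by edgeR. Glrx had 10.1, 10.2 and 10.9 CPM in TERT KO/KO kidneys, against 23.96, 28.2, 27.1 and 26.0 CPM in TERT WT/WT kidneys. The TERT KO/KO values were nearly identical to each other, and the groups again did not overlap. The log2 fold change of Glrx was -1.34 ± 0.09, with an adjusted p of 0.000146 by edgeR. Both genes lie on chromosome 13, the chromosome of Tert.

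**Figure D1:**
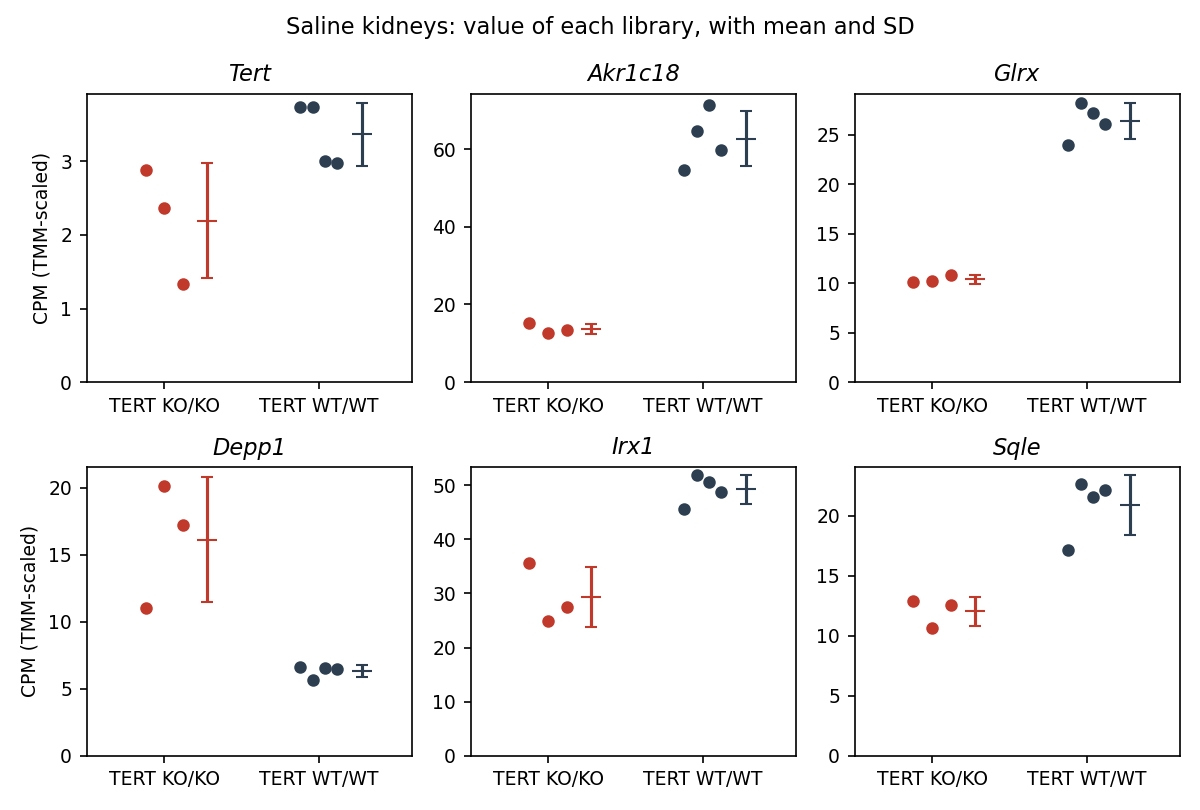
Level of 6 genes in each saline kidney (points, 3 TERT KO/KO on the left and 4 TERT WT/WT on the right of each panel), in TMM-scaled CPM from 0, with the mean and SD beside them. Akr1c18 and Glrx, the 2 genes called, are separated by more than their spread. Tert is also lower without overlap, with 1.34 to 2.88 CPM in TERT KO/KO and 2.98 to 3.74 CPM in TERT WT/WT, but it was not called.

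The reference sequence in front of each of the 2 called genes is shown, because they carry the result. The 250 bases before each start are from RefSeq on GRCm38.p6, written in the gene's own direction, with matches to TATAA and TGACTCA in capitals on either strand. The Akr1c18 window is chr13:4150647-4150896 on the minus strand and the Glrx window is chr13:75839635-75839884 on the plus strand.
Akr1c18: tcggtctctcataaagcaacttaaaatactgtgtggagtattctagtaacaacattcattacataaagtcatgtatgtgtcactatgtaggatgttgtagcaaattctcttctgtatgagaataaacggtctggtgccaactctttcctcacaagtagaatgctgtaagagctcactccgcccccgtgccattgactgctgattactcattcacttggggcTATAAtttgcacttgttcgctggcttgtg
Glrx: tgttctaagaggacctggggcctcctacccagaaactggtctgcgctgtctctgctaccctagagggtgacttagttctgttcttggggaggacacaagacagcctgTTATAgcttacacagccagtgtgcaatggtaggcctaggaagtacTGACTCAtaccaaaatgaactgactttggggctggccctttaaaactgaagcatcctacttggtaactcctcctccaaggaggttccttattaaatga
TATAA, the core of a TATA box, stood 29 bases before the start of Akr1c18 on the gene's own strand, and 143 bases before that of Glrx on the other strand. Among 32851 promoters of the same length, 22.8% hold TATAA on either strand. TGACTCA, a sequence that AP-1 factors can bind, stood 98 bases before the start of Glrx, and 4.46% of promoters hold it. These are matches of letters in the reference mouse genome, not sites shown to act in Balb/c mice.

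No tested relative of either gene was called. Akr1c18 sits in a cluster of similar aldo-keto reductase genes, among which short reads can be shared, and 6 other members were tested. Their log2 fold changes were -0.44 ± 0.10 for Akr1c19, -0.53 ± 0.19 for Akr1c20, 0.48 ± 0.18 for Akr1c13, 0.23 ± 0.23 for Akr1c12, 0.14 ± 0.17 for Akr1c14 and -0.00 ± 0.26 for Akr1c21, with adjusted p of 0.164 or more by edgeR. The other glutaredoxins Glrx2, Glrx3 and Glrx5 had log2 fold changes of 0.02 ± 0.08, -0.03 ± 0.10 and 0.14 ± 0.11. These relatives were looked at after the values of Akr1c18 and Glrx were seen.

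The 6 libraries taken 18 days after ADR came from other mice of the same genotypes, which the saline comparison did not use. Of these, TERT KO/KO ADR replicate 2 nearly lacked kidney markers and was rich in liver genes, against its label. Without TMM factors it had 19.03 CPM of Umod, 4.81 CPM of Lrp2 of the proximal tubule and 0.0418 CPM of Nphs1 of podocytes, against 2672 to 5739, 567 to 1636 and 3.48 to 29.7 CPM in the other 5 ADR libraries. Its Alb was at 261234 CPM, against 3.85 to 10.6 CPM in those libraries, so values are given with and without it. Akr1c18 had 6.649 and 29.1 CPM without TMM factors in the other TERT KO/KO ADR kidneys and 0.230 CPM in replicate 2, against 105.2, 95.8 and 58.9 CPM in TERT WT/WT ADR kidneys. The TERT KO/KO values were below the TERT WT/WT values with and without replicate 2. The log2 fold change of Akr1c18 was -2.38 ± 0.65 without replicate 2 and -2.92 ± 1.18 with it, with adjusted p of 0.999 and 0.884 by edgeR. Glrx had 26.6 and 16.7 CPM without TMM factors in the other TERT KO/KO ADR kidneys and 11.8 CPM in replicate 2, against 27.4, 34.8 and 38.1 CPM in TERT WT/WT ADR kidneys. With TMM factors the groups overlapped in Glrx over the 6 libraries and did not overlap over 5. Its log2 fold change was -0.61 ± 0.26 without replicate 2 and -0.35 ± 0.31 with it, with adjusted p of 0.999 and 0.884 by edgeR. No gene was called by edgeR between the genotypes after ADR, which is 0% of 17819 genes with 6 libraries and 0% of 18393 genes with 5. At an unadjusted p under 0.05 there were 485 and 526 genes. The difference between the ADR and saline effects of genotype, tested in 13 libraries with replicate 2 included, had an adjusted p of 0.771 for Akr1c18 and 0.380 for Glrx by edgeR.

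The 7 libraries held 39323498 to 47454388 counts. The fat gene Adipoq, the muscle gene Ckm and the Y-linked genes were at 0.375 CPM or less. TERT KO/KO replicate 1 had 82.9 CPM of the liver gene Alb, without TMM factors, against 12.9 and 16.9 CPM in the other TERT KO/KO libraries and 13.2 to 18.1 CPM in TERT WT/WT. Kidney markers such as Umod, Slc12a1, Slc34a1 and Aqp2 were present in all 7. The first axis of a multidimensional scaling of the libraries held 41.9% of the variance and did not separate the genotypes. TERT KO/KO replicates 2 and 3 and TERT WT/WT replicate 1 lay on its positive side at 1.28, 0.48 and 0.29, and the other 4 libraries lay between -0.82 and -0.08. This axis ran with the share of counts from mitochondrial-encoded genes, which was 16.7%, 25.4% and 20.3% in TERT KO/KO and 17.8%, 14.5%, 15.2% and 14.0% in TERT WT/WT.

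Below the call threshold, many genes differed by small amounts. At an unadjusted p under 0.05 there were 3195 genes, 1641 higher (9.45% of genes tested) and 1554 lower (8.95%) in TERT KO/KO. In 1186 genes (6.83%) all TERT KO/KO libraries lay above all TERT WT/WT libraries, and in 1149 genes (6.62%) all lay below. The median log2 fold change over all genes was 0.01. How many of these genes are called depended on the method. DESeq2, the tool named in the study's methods, called 430 genes, 209 higher (1.35% of the 15472 with an adjusted p) and 221 lower (1.43%). Limma voom with sample quality weights called 2243 genes. Leaving out TERT WT/WT replicate 1, which lay among the TERT KO/KO libraries on the first axis, edgeR called 1093 genes, 555 higher (3.27%) and 538 lower (3.17%). Leaving out TERT KO/KO replicate 1 gave 6 calls, and leaving out any other library gave 2 or 3. Akr1c18 and Glrx were called by each of these. With both ADR groups added to the fit, all 13 libraries gave 0 calls by edgeR and 558 genes at an unadjusted p under 0.05. Without TERT KO/KO ADR replicate 2 they gave 1 call, Glrx, and 1672 such genes. The genes named below are therefore given with their values and their edgeR adjusted p, and none of them but Akr1c18 and Glrx passed.

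The 12 genes with the smallest p among those higher in TERT KO/KO, with at least 1 CPM on average and no overlap, had adjusted p of 0.0560 to 0.0829. Depp1, a FoxO-responsive gene linked to autophagy, had 11, 20.2 and 17.2 CPM in TERT KO/KO kidneys, against 6.64, 5.64, 6.56 and 6.45 CPM in TERT WT/WT kidneys. Its TERT KO/KO values were spread out and its TERT WT/WT values tight, and its log2 fold change was 1.35 ± 0.17 with an adjusted p of 0.0560. After ADR the genotypes overlapped in Depp1, and its log2 fold change was -0.97 ± 0.49 over the 6 libraries and -0.78 ± 0.48 without TERT KO/KO ADR replicate 2, with adjusted p of 0.884 and 0.999 by edgeR. Zfas1 and Snhg12 are host genes from which small nucleolar RNAs are cut. Zfas1 averaged 12.7 ± 1.11 CPM in TERT KO/KO and 6.80 ± 0.99 CPM in TERT WT/WT, and Snhg12 averaged 13.4 ± 0.89 and 7.95 ± 1.25 CPM in the same order. The deiodinase Dio1, which makes active thyroid hormone, averaged 57.2 ± 6.54 CPM in TERT KO/KO and 38.99 ± 2.59 CPM in TERT WT/WT. The others were mt-Nd3, a mitochondrial-encoded subunit of complex I, and 7 noncoding or pseudogene loci, Gm15883, Gm23935, 2410006H16Rik, Gm42418, Gm12678, Rps4l and Rps24-ps3. Of these 12 genes, Gm12678 on chromosome 4 had the largest log2 fold change, 5.15 ± 0.75, with 12.0, 2.06 and 3.33 CPM in TERT KO/KO and 0.0215, 0.160, 0.124 and 0.366 CPM in TERT WT/WT. After ADR it did not separate the genotypes, at 1.07, 0.0418 (replicate 2) and 0.922 CPM without TMM factors in TERT KO/KO and 1.79, 0.0487 and 0.332 CPM in TERT WT/WT.

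The 12 genes with the smallest p among those lower in TERT KO/KO had adjusted p of 0.0653 to 0.0975. Slc16a5, a monocarboxylate transporter of the plasma membrane, had 3.93, 4.83 and 5.04 CPM in TERT KO/KO kidneys, against 8.31, 8.28, 8.98 and 7.47 CPM in TERT WT/WT kidneys. Ccn1, a secreted matricellular protein that is induced through YAP and growth factors, had 11.8, 10.99 and 9.86 CPM in TERT KO/KO and 16.8, 17.4, 15.9 and 18.7 CPM in TERT WT/WT. In both genes each group was tight and the groups lay well apart, with log2 fold changes of -0.85 ± 0.12 and -0.66 ± 0.10. Rcan1, an inhibitor of the phosphatase calcineurin, averaged 32.0 ± 2.58 CPM in TERT KO/KO and 52.9 ± 8.08 CPM in TERT WT/WT. Fa2h, which hydroxylates the fatty acids of sphingolipids, averaged 15.4 ± 2.08 and 23.8 ± 1.05 CPM in the same order. The kinase gene Prkd1 had a log2 fold change of -0.71 ± 0.13, the Rab regulator gene Tbc1d9 of -0.74 ± 0.12, and Pprc1, a coactivator of mitochondrial biogenesis, of -0.59 ± 0.10. Sqle and Irx1 belong to groups described next. The remaining 3 were the noncoding genes Gm16010, F630042J09Rik and AC158975.2.

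Markers of the thick ascending limb, the segment that reabsorbs salt without water and secretes uromodulin, were lower as a group in TERT KO/KO kidneys. Of 16 genes tested, 12 were lower and 0 higher at an unadjusted p under 0.05, against 8.95% and 9.45% of all genes, and the median log2 fold change was -0.38, against 0.01 over all genes. None of the 16 was called by edgeR, and DESeq2 called 9, all lower, against 1.43% lower over all genes. Irx1, a homeobox factor of developing nephrons, had 35.5, 24.9 and 27.5 CPM in TERT KO/KO kidneys, against 45.6, 52.0, 50.6 and 48.8 CPM in TERT WT/WT kidneys (log2 fold change -0.75 ± 0.12, adjusted p 0.0707 by edgeR). Slc12a1, the sodium-potassium-chloride cotransporter that loop diuretics block, had 539, 469 and 495 CPM in TERT KO/KO kidneys, against 656, 702, 920 and 836 CPM in TERT WT/WT kidneys. Kcnj1, the potassium channel that recycles potassium for that transporter, had 214, 175 and 209 CPM in TERT KO/KO and 239, 281, 332 and 304 CPM in TERT WT/WT. None of these 3 genes overlapped between the genotypes, and TERT WT/WT replicate 1 was the TERT WT/WT library nearest to TERT KO/KO in each. These 3 were named for having the smallest p of the list. Over the list, 6 of 16 genes did not overlap, all lower, against 6.62% of all genes. The summed level of all 16 markers, without TMM factors, was 5014, 3639 and 4721 CPM in TERT KO/KO and 5327, 6869, 8081 and 7071 CPM in TERT WT/WT. TERT KO/KO replicate 2, which had the lowest sum, had the highest mitochondrial share of counts, and the part of that share in this difference was not tested. Uromodulin mRNA (Umod) overlapped, with 2343, 1710 and 2355 CPM in TERT KO/KO and 2315, 3219, 3953 and 3150 CPM in TERT WT/WT. The tight junction gene Cldn10 of the same list had a log2 fold change of -0.02 ± 0.08. Without any 1 of the 7 libraries, 10 to 12 of the list were lower at an unadjusted p under 0.05, and its median ran from -0.48 to -0.32.

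The distal convoluted tubule, which follows the thick ascending limb, had 6 of 13 markers lower and 0 higher at an unadjusted p under 0.05, with a median log2 fold change of -0.26. Without 1 library 4 to 9 of these were lower, the highest number without TERT WT/WT replicate 1. Its defining gene Slc12a3, the thiazide-sensitive sodium-chloride cotransporter, had 453, 549 and 625 CPM in TERT KO/KO kidneys, against 720, 751, 778 and 705 CPM in TERT WT/WT kidneys, with no overlap. Egf, which is made by both segments and stands in both lists, had 707, 502 and 693 CPM in TERT KO/KO and 725, 877, 1209 and 1145 CPM in TERT WT/WT. Cnnm2, a gene of magnesium handling, had a log2 fold change of -0.47 with an adjusted p of 0.190. In the proximal tubule list 3 of 41 genes were higher and 1 lower, with a median of -0.03, and in the collecting duct principal cell list 3 of 14 were higher and 3 lower, with a median of -0.02. In the intercalated cell list 4 of 18 were lower and 0 higher, with a median of -0.04, led by Foxi1, their master transcription factor, at -0.42 (adjusted p 0.183). Genes of podocytes, the glomerular cells that ADR injures, had 3 of 26 lower and 1 higher, with a median of -0.08 and Ptpro, Pla2r1 and Podxl at -0.30, 0.48 and -0.24. Summed over each list without TMM factors, the groups did not overlap in distal convoluted tubule, intercalated cell and podocyte genes. With TMM factors the distal convoluted tubule sums overlapped, and so did the podocyte sums. The TMM factors were 0.910 to 1.01 in TERT KO/KO and 1.02 to 1.05 in TERT WT/WT. The number of podocyte genes lower ran from 0 without TERT KO/KO replicate 3 to 5 without TERT KO/KO replicate 1 or TERT WT/WT replicate 1. The podocyte sum, without TMM factors, was 1947 to 2191 CPM in TERT KO/KO and 2210 to 2439 CPM in TERT WT/WT.

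Genes of sterol synthesis and uptake, which share control by the transcription factor SREBP2, were also lower as a group. Of 26 genes tested, 14 were lower and 0 higher at an unadjusted p under 0.05, and the median log2 fold change was -0.26. None was called by edgeR, and DESeq2 called 6, all lower, against 1.43% lower over all genes. Their summed level overlapped, with 1783, 1268 and 1515 CPM without TMM factors in TERT KO/KO and 1698, 1955, 2027 and 2021 CPM in TERT WT/WT. Sqle, squalene epoxidase, an early oxidation step on the way to cholesterol, had 12.9, 10.7 and 12.5 CPM in TERT KO/KO kidneys, against 17.2, 22.7, 21.6 and 22.2 CPM in TERT WT/WT kidneys (log2 fold change -0.79 ± 0.12, adjusted p 0.0653 by edgeR). Msmo1, which removes methyl groups from sterol intermediates, had 27.1, 23.4 and 28.3 CPM in TERT KO/KO and 36.0, 39.2, 35.9 and 36.7 CPM in TERT WT/WT. Srebf2, which encodes SREBP2, had 101, 92.2 and 100 CPM in TERT KO/KO and 113, 128, 130 and 131 CPM in TERT WT/WT. In all 3 genes, named for having the smallest p of the list, the groups did not overlap. Over the list, 10 of 26 genes did not overlap, all lower, against 6.62% of all genes. Of the same list, Cyp51 and Mvk had log2 fold changes of -0.04 and -0.07. Without any 1 library, 11 to 16 of the 26 were lower at an unadjusted p under 0.05, and the median ran from -0.34 to -0.22. After ADR, Sqle had 18.4 and 31.9 CPM without TMM factors in TERT KO/KO and 51.3 CPM in replicate 2, the library with abundant liver genes, against 18.4, 32.2 and 38.2 CPM in TERT WT/WT. Its log2 fold change was -0.24 ± 0.29 without replicate 2 and 1.20 ± 0.80 with it, so the sign turned on that library.

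In the opposite direction, all 13 mitochondrial-encoded respiratory chain genes were higher in TERT KO/KO at an unadjusted p under 0.05, with a median log2 fold change of 0.58. None was called by edgeR, and DESeq2 called 10, all higher, against 1.35% higher over all genes. mt-Nd3 had 12.0, 14.4 and 14.2 CPM in TERT KO/KO kidneys, against 8.89, 8.44, 7.72 and 6.81 CPM in TERT WT/WT kidneys. mt-Nd6, the subunit gene on the light strand of the mitochondrial genome, had 21.6, 29.1 and 13.3 CPM in TERT KO/KO and 10.6, 9.46, 6.16 and 9.33 CPM in TERT WT/WT. mt-Co1, a core subunit of cytochrome oxidase named for its level after the values were seen, had 46810, 74530 and 57820 CPM in TERT KO/KO and 49110, 39250, 38620 and 36360 CPM in TERT WT/WT. TERT KO/KO replicate 2 was highest in mt-Nd6 and mt-Co1, and TERT KO/KO replicate 1 lay below TERT WT/WT replicate 1 in mt-Co1. Although they lie on the same genome, mt-Nd3 and mt-Nd6 were counted far below mt-Co1, and the reason was not tested. Without TERT KO/KO replicate 2, 9 of the 13 were higher at an unadjusted p under 0.05, with a median of 0.41. Nuclear genes of the respiratory chain had 11 of 43 higher and 0 lower, with a median of 0.11, led by Cox6c, Cox7b and Cox4i1, and 0 of the 43 were called by edgeR or DESeq2. The number higher was 4, 2, 5 and 4 without TERT KO/KO replicates 2 and 3 and TERT WT/WT replicates 3 and 4, and 19 without TERT WT/WT replicate 1.

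Short transcripts lay on the higher side too. Outside the mitochondrial genome, the fifth of genes with the shortest summed exons, 55 to 1866 bases, had a median log2 fold change of 0.17, with 18.2% higher and 2.71% lower at an unadjusted p under 0.05. The fifth with the longest, 6957 to 123179 bases, had a median of -0.07, with 5.37% higher and 12.6% lower. Of 76 cytosolic ribosomal protein genes, 61 were higher and 0 lower, with a median of 0.37, and of 16 small nucleolar RNA host genes 12 were higher and 0 lower. The part of transcript length in any list described here was not tested. The part of the mitochondrial share of counts, which overlapped between the genotypes, was not tested either.

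**Figure D2:**
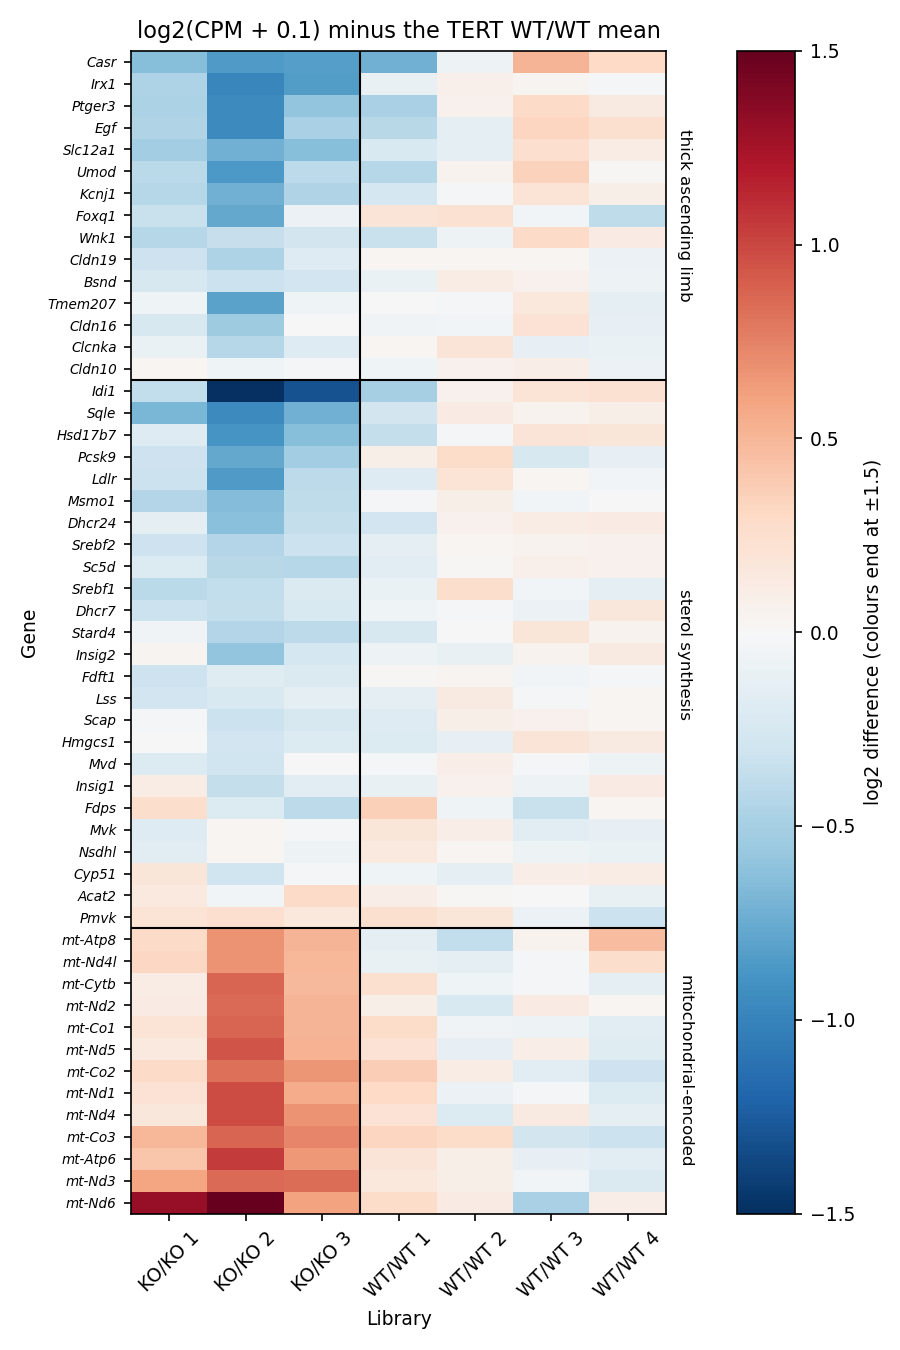
Rows are genes of the thick ascending limb list (top), the sterol list (middle) or the mitochondrial-encoded respiratory chain list (bottom), and each column is a saline kidney, 3 TERT KO/KO on the left and 4 TERT WT/WT on the right, with 1 gene each of the top and middle lists not shown. Colour is log2(CPM + 0.1) minus the TERT WT/WT mean, and TERT KO/KO replicate 2 has the deepest colours in most rows, while TERT WT/WT replicate 1 shares the TERT KO/KO colour in many rows of the top and bottom lists.

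Signalling pathways showed smaller differences. In the PI3K and AKT list 8 of 40 genes were lower and 0 higher at an unadjusted p under 0.05, with a median of -0.10. Foxo3, a transcription factor that AKT inhibits, had a log2 fold change of -0.48, Rptor, which defines the mTORC1 complex, of -0.44, and the kinase gene Pik3cb of -0.37, with adjusted p of 0.164, 0.165 and 0.195 by edgeR. The number lower in the PI3K and AKT list was 4 without TERT KO/KO replicate 2 or 3 or TERT WT/WT replicate 4, 5 without TERT WT/WT replicate 3 and 14 without TERT WT/WT replicate 1. Glycolysis genes that mTORC1 induces had 5 of 31 lower (16.1%) and 2 higher (6.45%), against 8.95% and 9.45% of all genes. The median of this list was -0.04. Over it, 6 of 31 genes lay wholly below and 2 wholly above, against 6.62% and 6.83% of all genes. Without 1 library, 3 to 6 of the 31 were lower. The leading glycolysis genes were Pfkp, Hk1 and Slc2a1, at -0.38, -0.24 and -0.23. Protein secretion and vesicle traffic had 12 of 57 genes lower and 3 higher, with a median of -0.13 and the coat protein genes Ap1g1, Sec23b and Sec24c at -0.38, -0.34 and -0.34. The number lower in that list was 4 and 5 without TERT KO/KO replicates 2 and 3, 6 without TERT WT/WT replicate 3 or 4, and 21 without TERT WT/WT replicate 1.

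In the Notch list 4 of 37 genes were lower and 1 higher, with a median of -0.08, a share near the background. Its summed level, without TMM factors, was 1212, 1129 and 1136 CPM in TERT KO/KO kidneys, against 1308, 1333, 1320 and 1347 CPM in TERT WT/WT kidneys, which do not overlap. Notch1, the receptor, had a log2 fold change of -0.31, Maml1, the coactivator that the cleaved receptor recruits, of -0.51, and Adam17, a protease that can shed the receptor, of -0.26, with adjusted p of 0.164 to 0.212 by edgeR. All 3 were separated between the genotypes, but they were named for having the smallest p of the list. Over the list, 4 of 37 genes lay wholly below and 1 wholly above, against 6.62% and 6.83% of all genes. The Wnt list had 7 of 51 lower and 4 higher, with a median of -0.07. Dvl3, which relays the signal inside the cell, had a log2 fold change of -0.33 and the receptor gene Fzd3 of -0.48, while the ligand gene Wnt9b had 0.69, with adjusted p of 0.162, 0.181 and 0.199. Without 1 library the number lower ran from 2 to 6 in the Notch list and from 2 to 15 in the Wnt list, lowest without TERT KO/KO replicate 3 in both and highest without TERT WT/WT replicate 1. No Notch or Wnt gene was called by edgeR. DESeq2 called 2 of the Notch list and 1 of the Wnt list, all lower, against 1.43% lower over all genes with an adjusted p.

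**Figure D3:**
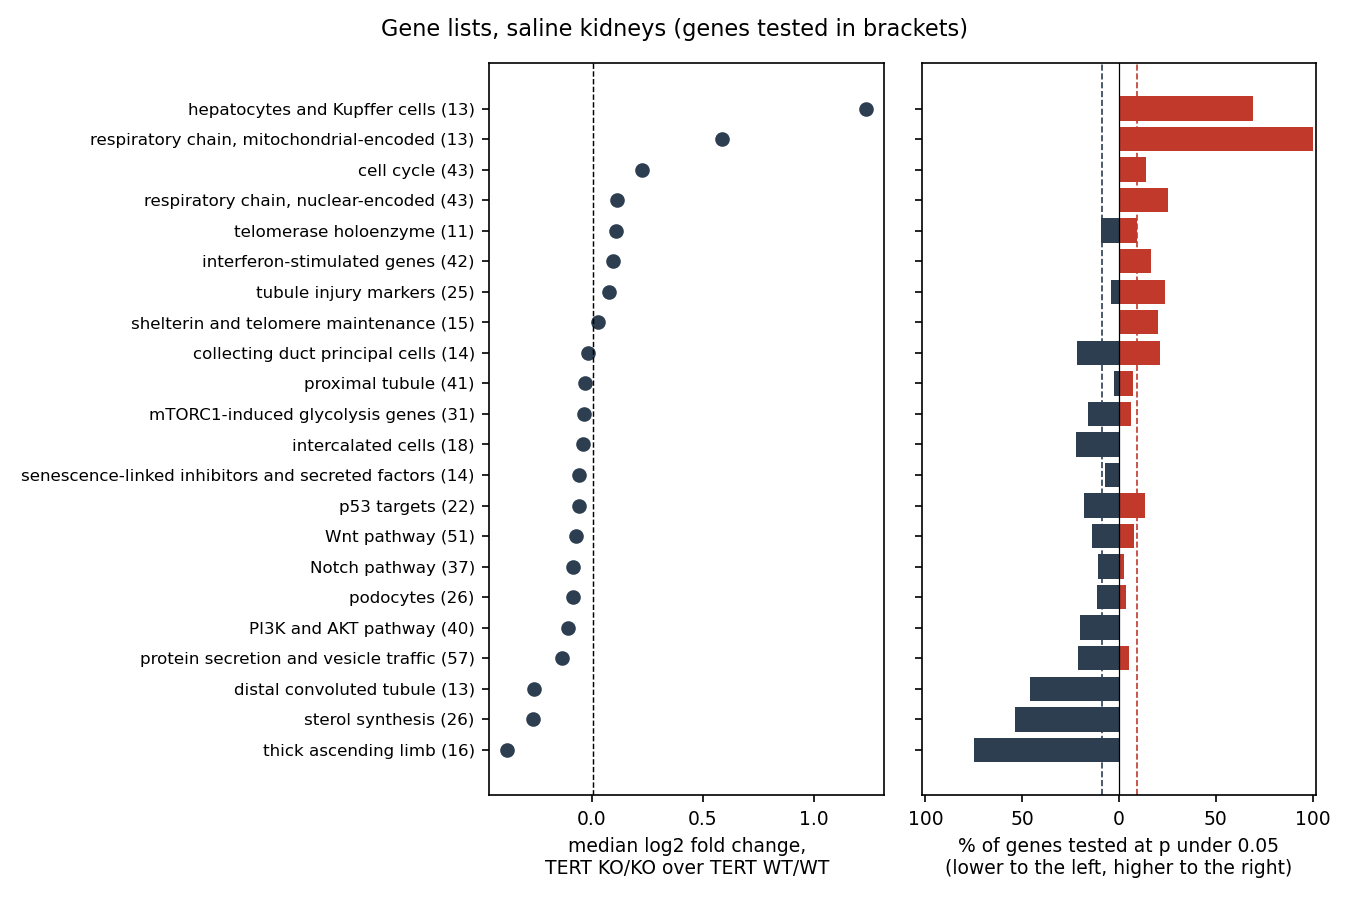
For 22 gene lists, with the number of genes tested in brackets, the left panel gives the median log2 fold change of TERT KO/KO over TERT WT/WT, with the median of all genes (0.01) dashed. The right panel gives the percent of the list at an unadjusted p under 0.05, lower in TERT KO/KO to the left (dark) and higher to the right (red), with the shares of all genes (8.95% and 9.45%) dashed. The thick ascending limb, sterol and distal convoluted tubule lists stand at the lower end and the mitochondrial-encoded and hepatocyte lists at the upper end.

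Cell cycle genes had 6 of 43 higher and 0 lower, with a median of 0.23, and the chromatin protein gene Hmgb2, the replication licensing gene Cdt1 and the thymidine kinase gene Tk1 at 0.39, 0.43 and 0.68 (adjusted p 0.168 to 0.181 by edgeR). The cell cycle median was 0.08 without TERT KO/KO replicate 2, 0.10 without TERT WT/WT replicate 2 and 0.37 without TERT KO/KO replicate 1. Interferon-stimulated genes had 7 of 42 higher and 0 lower, with a median of 0.10 and Ifit3, Rsad2 and Rtp4 at 0.32, 0.33 and 0.32. The number of interferon-stimulated genes higher was 2 and 3 without TERT KO/KO replicates 2 and 3, 2 without TERT WT/WT replicate 4, which also gave 3 lower, and 12 without TERT KO/KO replicate 1 or TERT WT/WT replicate 1. Tubule injury markers had 6 of 25 higher and 1 lower, with a median of 0.08. Among them, S100a6 was at 0.56, the iron-siderophore binding protein gene Lcn2 at 0.94 and the metalloproteinase inhibitor gene Timp1 at 1.00, with adjusted p of 0.181 to 0.201. The largest log2 fold change of the injury list, 2.24, was that of Fgb, named after its values were seen, which is also in the hepatocyte list. Fgb had 2.55, 0.380 and 0.262 CPM in TERT KO/KO and 0.150, 0.140, 0.187 and 0.464 CPM in TERT WT/WT. TERT KO/KO replicate 1 thus carried its difference. Without 1 library, 4 to 8 of the injury list were higher. Targets of p53 were split, with 3 of 22 higher and 4 lower, and the senescence-linked list had 1 of 14 lower and 0 higher. Among partners of Tert, 1 of 11 telomerase genes, Tert itself, was lower and 1 was higher. That gene was Nhp2, part of the box H/ACA core that binds the telomerase RNA, at 0.28 (adjusted p 0.263), and Gar1 of the same core was at 0.20. Of 15 shelterin and telomere maintenance genes, 3 were higher and 0 lower, the helicase gene Rtel1, the chromatin remodeller gene Atrx and Ten1 of the CST complex, at 0.24, 0.28 and 0.27. The other 26 of the 48 lists included no called gene, and the 18 of them with 10 or more genes tested had medians of -0.16 to 0.39.

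Of 22 hepatocyte and Kupffer cell genes 13 were tested, 9 were higher and 0 lower at an unadjusted p under 0.05, with a median of 1.23. Their summed level was 200.8, 86.3 and 109 CPM in TERT KO/KO, without TMM factors, and 76.1 to 99.99 CPM in TERT WT/WT. TERT KO/KO replicate 1 carried the difference, as in Hpx, the heme scavenger, with 3.60, 0.923 and 0.446 CPM in TERT KO/KO and 0.515, 0.180, 0.373 and 0.488 CPM in TERT WT/WT. Without that library the median was 0.39.

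Because both called genes lie on the chromosome of Tert, genes were counted by their distance from it, a count chosen after seeing the data. Tert lies at chr13:73626911-73649843 on the mm10 build. Of the 124 other genes tested whose start lies within 10 Mb of that of Tert, 10 (8.06%) had an unadjusted p under 0.001, against 0.577% of 16652 genes on other chromosomes. Glrx, a called gene that prompted this count, is 1 of the 10. Groups did not overlap in 28.2% of the 124, against 13.4% elsewhere. Over the whole of chromosome 13 the share at an unadjusted p under 0.001 was 2.25% of 668 genes, and over each other autosome and the X chromosome it was at most 1.28%. Beyond 20 Mb from Tert on chromosome 13 it was 0.971% of 412 genes, and Akr1c18, at -69.5 Mb, is 1 of these 4 genes. In each of 15 other settings of the analysis the share within 10 Mb was above that on other chromosomes, with 1 to 14 genes. The lowest, 1 gene, was with all 13 libraries. Every setting reuses these saline libraries, so the settings are not independent.

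The 10 genes lay in both directions, 2 higher and 8 lower in TERT KO/KO. Eprn, a noncoding gene 0.282 Mb from Tert, had the smallest p within 1 Mb, with 9.38, 7.30 and 8.89 CPM in TERT KO/KO kidneys, against 14.5, 10.8, 13.4 and 12.8 CPM in TERT WT/WT kidneys (log2 fold change -0.59 ± 0.13, adjusted p 0.151 by edgeR). The adjacent Clptm1l and Slc6a18 had log2 fold changes of -0.10 and -0.04. Irx1, 1.67 Mb from Tert, is the thick ascending limb gene described above. Glrx lies 2.21 Mb from Tert, and its neighbours Rhobtb3 and Arsk had log2 fold changes of -0.71 and -0.52. Near -6 Mb, in a region rich in KRAB zinc finger genes, F630042J09Rik had 0.349, 0.570 and 0.892 CPM in TERT KO/KO and 1.59, 2.18, 2.30 and 2.17 CPM in TERT WT/WT. Also there, the antisense gene 9430065F17Rik had 0.960, 0.733 and 0.839 CPM in TERT KO/KO and 0.301, 0.240, 0.145 and 0.171 CPM in TERT WT/WT, and the repressor gene Rsl1 a log2 fold change of 0.81. Clptm1l, Slc6a18, Rhobtb3, Arsk, 9430065F17Rik and Rsl1 were named after their values were seen. The line was repeatedly bred back to the BALB/c strain, and whether DNA linked to the mutant allele still differs between these littermates was not tested.

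**Figure D4:**
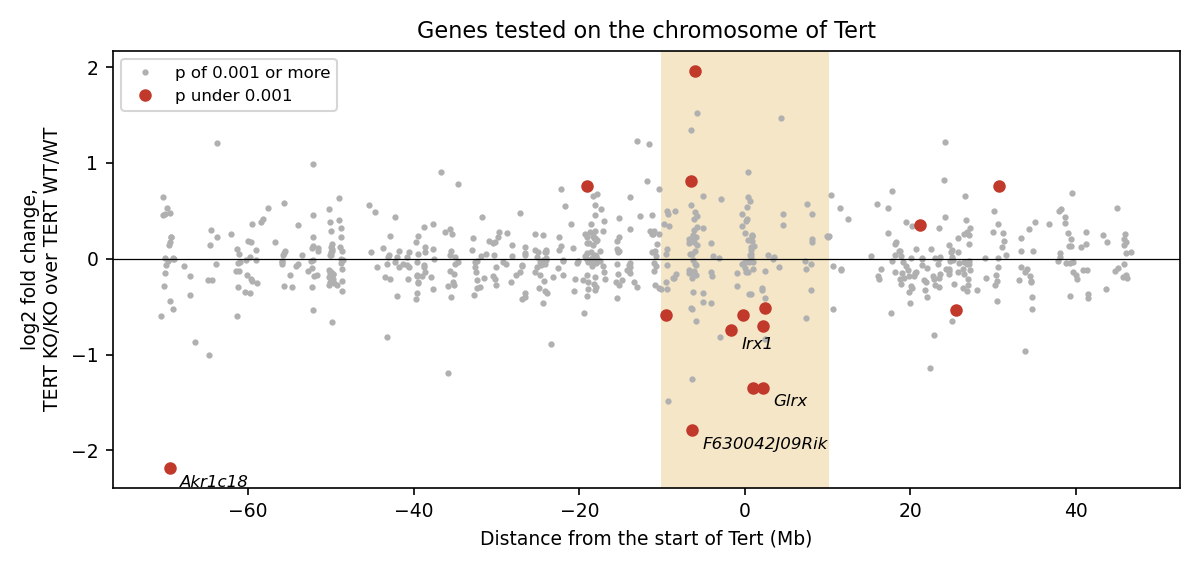
Each point is a gene tested on the chromosome of Tert, placed by its distance in Mb from the start of Tert, against its log2 fold change of TERT KO/KO over TERT WT/WT. Genes at an unadjusted p under 0.001 are red, and 10 of them lie in the shaded 10 Mb on either side of Tert, with Akr1c18 at the left edge.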

How the data were processed

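RNA of whole kidneys was sequenced by the study as paired-end reads. Per the labels and the study's methods, the authors used FastQC, Trimmomatic, STAR on mm10 and DESeq2. The counting tool, annotation release and strand setting are not given in the sources used here. The deposited table gives raw read counts for each gene, 39323498 to 47454388 per library here.

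Of 55471 identifiers, 55230 matched GENCODE M21 without their version, which gave symbols and positions. Genes were filtered with filterByExpr, leaving 17363, and fitted over the 7 libraries with TMM factors in edgeR 4.0.16 (robust quasi-likelihood F test). P values were adjusted by Benjamini-Hochberg and genes called under 0.05. CPM are TMM-scaled unless stated, errors of log2 fold changes are standard errors, and no gene with a saline fold change given was at 0 in a whole group. The model was tested on simulated data. Replicate libraries differed by far more than counting noise, so none was counted as a duplicate. A count of 3195 genes at an unadjusted p under 0.05 is descriptive.

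Named were Tert, called genes, the 12 genes per direction with the smallest p (mean of at least 1 CPM, no overlap), 3 genes per list described, and the gene within 1 Mb of Tert with the smallest p. Members and lists were chosen with earlier results of these data known. Alternatives were other size factors, filters, DESeq2 1.42.0, limma 3.58.1, a replicate block, added ADR libraries and each library left out. The comparison after ADR was added after seeing the data. Some genes of the lists are counted but not reported here by name.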

Additional observations from a re-analysis of the deposited data

How the results depend on the processing

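The number of genes called was 2, and it was 2 with median-ratio size factors and with a filter of a mean of at least 1 CPM. It was 184 with no filter, 430 with DESeq2, 2243 with limma voom with sample quality weights, 0 with all 13 libraries and 1 with 12 libraries, without TERT KO/KO ADR replicate 2. Without each saline library in turn it ran from 2 to 1093, the highest without TERT WT/WT replicate 1. The number of genes at an unadjusted p under 0.05 was 3195, and it was 6064 with limma voom, 558 with all 13 libraries, 1672 with 12, and 1517 to 5096 without each saline library in turn (1517 and 2016 without TERT KO/KO replicates 2 and 3, 1915 and 1913 without TERT WT/WT replicates 3 and 4, and 5096 without TERT WT/WT replicate 1). With a replicate block the counts were 5 and 1233. Same-numbered libraries deviated together with correlations of -0.40, 0.03 and -0.02, and libraries of different number with -0.27 to 0.37. With so few libraries these values cannot tell whether the numbers pair the mice. The cause of these shifts was not tested.

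Akr1c18 and Glrx kept their direction in all 15 settings. Akr1c18 was not called with all 13 libraries (-2.19, adjusted p 1) or with 12 (-2.19, adjusted p 0.423), and Glrx was not called with all 13 (-1.35, adjusted p 0.798). Without each saline library they ran from -2.26 to -2.11 and from -1.39 to -1.31. Tert was called in limma voom alone (-0.89, adjusted p 0.0359) and ran from -0.86 to -0.36 without each saline library. None of the 89 single genes checked changed direction in 1331 values. Of these genes, 49 were newly called by DESeq2, 73 by limma voom and 54 without TERT WT/WT replicate 1. Of 22 list medians, those of the collecting duct, intercalated cell and proximal tubule lists changed sign in some settings. Medians that moved by more than the spread between libraries were 0.0013 for telomerase, -0.0035 for p53 targets and 0.20 for tubule injury markers with limma voom, and 0.51 for hepatocytes with a mean of at least 1 CPM. Without each saline library in turn, medians ran from 0.0429 to 0.1478 for telomerase, 0.0186 to 0.0882 for shelterin, -0.0326 to -0.0048 for p53 targets, -0.0778 to -0.0083 for glycolysis, -0.1271 to -0.028 for Wnt, 0.0635 to 0.2063 for tubule injury, -0.1344 to 0.0149 for intercalated cells and 0.39 to 1.51 for hepatocytes. Tert rests on 51 to 187 counts per library, which limits how small a difference can be seen.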

Other observations

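Of 15 B and plasma cell genes, 4 were higher in TERT KO/KO at an unadjusted p under 0.05 with 0 lower, while the list median was -0.05. Cd79b, part of the B cell receptor, had a log2 fold change of 0.69, the B cell factor gene Pax5 of 1.43 and the immunoglobulin gene Ighd of 0.91, with adjusted p of 0.181, 0.185 and 0.196 by edgeR. Summed over the list, TERT KO/KO libraries held 159 to 203 CPM and TERT WT/WT libraries 202 to 252 CPM, without TMM factors. Immediate early genes had 7 of 24 lower and 2 higher, with Ccn1, Gadd45b and Ier3 at -0.66, 0.63 and -0.48. Their summed level, without TMM factors, was 408 to 459 CPM in TERT KO/KO and 484 to 527 CPM in TERT WT/WT, which do not overlap. In every list whose sums without TMM factors did not overlap, TERT KO/KO was the lower group. Every TERT KO/KO library had a lower TMM factor than every TERT WT/WT library, so scaling raises the TERT KO/KO sums relative to the others. With TMM factors the distal convoluted tubule and podocyte sums overlapped. The part of this scaling in the shared direction was not tested. Of the 11 metalloproteinases tested, 0 were called by edgeR and 0 had an unadjusted p under 0.05, with Mmp2 at 0.18 and Mmp15 at -0.26.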
